A study of Mus musculus with 52 samples.

Results

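H3K27ac, an acetylated lysine of histone H3, was profiled in the suprachiasmatic nucleus (SCN) of mice in light and in darkness, and 7018 peaks were called in the dark list without any peak of the light list over them. These dark-only peaks were chosen by 2 values of the deposited lists: a −log10 q of at least 5, and no single base shared with a light peak of any score. They are 24.66% of the 28456 dark peaks that pass the score threshold, out of 38447 dark peaks in all. The other 21438 scored dark peaks share at least 1 base with a light peak and are called shared. The mirror set, light peaks with a −log10 q of at least 5 and no dark peak over them, holds 3931 of 22325 peaks (17.61%).

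All animals were males of 11 to 12 weeks. The ChIP samples came from wild-type (WT) mice, given 1 h of light or left in the dark, with 2 pairs of SCN in each sample; H3K27ac and H3K4me3 each have 1 list for light and 1 for dark, so no peak value has a replicate. RNA-seq libraries pooled 6 pairs of SCN each. In the Npas4 experiment, WT littermates of Npas4 null mice received 1 h of light from circadian time (CT) 17 (WT light, n = 3) or stayed in the dark (WT dark, n = 3), while the light and dark libraries of the null mice (3 each), which lack the transcription factor Npas4 by their labels, entered the fit only. In the light-pulse experiment WT mice received light from CT17 for 1 h (n = 2) or 6 h (n = 2), or stayed in the dark until CT17 (n = 4) or CT23 (n = 2); the groups with 0.5 h and 3 h of light entered the fit only. The circadian time of the ChIP samples is not given in the sources used here.

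H3K27ac is deposited by acetyltransferases such as CBP and p300 at active promoters and enhancers, and removed by histone deacetylases. H3K4me3 marks the promoters of active or poised genes, so a region with both marks is usually a promoter and a region with H3K27ac alone usually an enhancer. The SCN is the circadian pacemaker of the hypothalamus, a cluster of mostly GABA-releasing neurons that takes light input from the retina and answers light at night with rapid transcription of immediate-early and Period genes.

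The following promoters show where dark-only peaks met a gene start. They were picked from the genes described here for which a dark-only peak covers 50 bases or more of the promoter window: the 2 with the highest fold enrichment, a clock gene, a gene of inhibitory neurons and 2 whose peaks lie far from any light peak. Each runs 5′ to 3′ from 250 bases before to 50 bases after the start site, from RefSeq on GRCm38.p6, with the bases inside the dark-only peak in capitals.
Ogdh: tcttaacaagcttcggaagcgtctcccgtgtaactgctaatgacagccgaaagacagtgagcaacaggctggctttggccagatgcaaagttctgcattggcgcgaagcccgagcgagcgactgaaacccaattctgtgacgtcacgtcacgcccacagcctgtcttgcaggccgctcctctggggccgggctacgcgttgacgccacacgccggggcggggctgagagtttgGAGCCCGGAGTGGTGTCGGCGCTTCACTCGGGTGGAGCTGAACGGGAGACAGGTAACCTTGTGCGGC
Hnrnpf: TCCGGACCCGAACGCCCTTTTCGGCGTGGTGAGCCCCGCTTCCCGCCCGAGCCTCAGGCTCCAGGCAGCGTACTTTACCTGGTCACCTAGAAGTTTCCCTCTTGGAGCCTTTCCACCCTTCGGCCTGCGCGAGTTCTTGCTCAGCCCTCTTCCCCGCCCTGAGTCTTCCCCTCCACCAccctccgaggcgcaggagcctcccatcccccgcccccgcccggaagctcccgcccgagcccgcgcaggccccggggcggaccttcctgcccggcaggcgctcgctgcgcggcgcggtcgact
Rora: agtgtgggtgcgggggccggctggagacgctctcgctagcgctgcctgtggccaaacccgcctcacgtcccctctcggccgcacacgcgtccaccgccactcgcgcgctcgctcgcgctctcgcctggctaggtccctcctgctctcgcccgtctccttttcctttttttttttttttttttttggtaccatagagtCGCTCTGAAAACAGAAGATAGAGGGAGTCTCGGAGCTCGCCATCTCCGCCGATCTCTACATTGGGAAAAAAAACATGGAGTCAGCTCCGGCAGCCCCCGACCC
Whrn: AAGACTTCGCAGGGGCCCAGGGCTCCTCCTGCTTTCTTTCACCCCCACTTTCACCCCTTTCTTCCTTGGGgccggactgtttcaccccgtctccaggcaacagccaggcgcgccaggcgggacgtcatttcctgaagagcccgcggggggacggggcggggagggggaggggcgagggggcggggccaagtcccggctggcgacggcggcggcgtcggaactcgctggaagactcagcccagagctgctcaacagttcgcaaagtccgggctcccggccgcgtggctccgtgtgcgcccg
Slc32a1: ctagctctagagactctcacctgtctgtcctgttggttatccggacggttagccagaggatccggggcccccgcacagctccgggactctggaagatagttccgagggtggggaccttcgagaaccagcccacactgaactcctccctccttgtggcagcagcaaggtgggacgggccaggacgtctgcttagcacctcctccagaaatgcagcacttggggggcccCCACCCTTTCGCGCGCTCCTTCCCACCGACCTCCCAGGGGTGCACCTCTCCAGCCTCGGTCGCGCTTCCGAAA
Scn8a: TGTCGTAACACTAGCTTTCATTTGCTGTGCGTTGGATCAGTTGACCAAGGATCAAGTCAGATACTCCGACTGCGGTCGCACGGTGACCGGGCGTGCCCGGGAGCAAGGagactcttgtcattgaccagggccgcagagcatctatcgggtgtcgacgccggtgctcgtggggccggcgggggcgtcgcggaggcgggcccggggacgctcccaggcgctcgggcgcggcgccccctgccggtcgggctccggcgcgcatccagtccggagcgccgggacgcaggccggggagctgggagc

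The Ogdh promoter (chr11:6291409-6291708, plus strand; a subunit of a citric acid cycle enzyme) was covered over its last 67 bases by a peak of fold enrichment 9.58, whose summit lay 95 bases downstream of the start and whose nearest light peak was 30 bases away. At Hnrnpf (chr6:117917044-117917343, plus strand; an RNA-binding splicing factor) the peak of fold enrichment 9.52 covered the first 178 bases, and the nearest light peak was 9450 bases away. The Rora window (chr9:68653536-68653835, plus strand; a nuclear receptor that activates clock genes) was covered over 103 bases around and after the start by a peak of fold enrichment 8.91, with a light peak 121 bases away. The Whrn window (chr4:63495942-63496241, minus strand; a scaffold protein of sensory cells) was covered at its upstream end over 70 bases, at fold enrichment 8.91, and the nearest light peak was 35690 bases away. At Slc32a1 (chr2:158610508-158610807, plus strand; the vesicular GABA transporter) a peak of fold enrichment 7.07 covered the last 73 bases, with a light peak 141 bases away. At Scn8a (chr15:100870395-100870694, plus strand; a neuronal sodium channel) a peak of fold enrichment 4.94 covered the first 108 bases, and the nearest light peak was 38696 bases away. All 6 peaks overlapped an H3K4me3 peak in both lists.

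Promoters with a dark-only summit inside this 300-base window were rich in G and C. There were 340 of them, with a median GC content of 61% and 21 CG dinucleotides, against 63% and 23 in the 1928 promoters with a shared summit and no dark-only summit, and 52.67% and 7 over all 32851 RefSeq promoters in the table. Motifs were searched on both strands. The GC box GGGCGG was present in 59.71% of the dark-only promoters, 61.72% of the shared ones and 35.66% of all promoters. The cAMP response element TGACGTCA, to which light-activated CREB binds, was present in 2.94% of the dark-only promoters, 3.01% of the shared ones, 5.61% of the 196 promoters with a light-only summit and 1.79% of all promoters. The shorter TGACG, which the full element contains, was present in 29.12% of the dark-only promoters, 35.17% of the shared ones, 38.78% of the light-only ones and 20.81% of all promoters. The E-box CACGTG, bound by CLOCK and BMAL1, was present in 7.65%, 9.13%, 11.73% and 7.15% of the same 4 sets. The D-box core TTANNTAA was present in 3.53%, 2.54%, 4.08% and 6% of them, the AP-1 site TGANTCA in 5.29%, 3.79%, 4.59% and 7.81%, and the ROR core AGGTCA in 9.12%, 11.77%, 15.82% and 16.26%. The CCAAT box was present in 27.35%, 24.79%, 31.63% and 37.41% of them, and the TATA box TATAAA in 5.88%, 4.1%, 4.08% and 13.62%. Among the printed promoters, Ogdh holds 1 full cAMP response element and Hnrnpf 6 GC boxes, while no motif of this list was found in Slc32a1 or Scn8a. A match is a run of letters and not a tested binding site.

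The score is part of how these peaks were chosen, and their values are given as a description. Dark-only peaks had a median fold enrichment over the peak caller's background of 5.54 and reached at most 11.35, against a median of 6.46 and a maximum of 22.88 for shared dark peaks. Their median −log10 q was 6.05, against 9.34 for shared dark peaks. Fold values were coarse: the 7018 peaks took only 181 different values, 5083 of them took one of the 10 most frequent values, and 1194 shared the value 4.94. The dark-only share of dark peaks was 47.94% at −log10 q from 5 to 6, 17.73% from 8 to 10, and 0.937% from 15 to 20. Above 20 a single dark-only peak remained among 1681 dark peaks, that of Usp15. The light-only share of light peaks ran the same way, with 37.17% from 5 to 6 and 1 of 1006 peaks above 20.

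**Figure D1:**
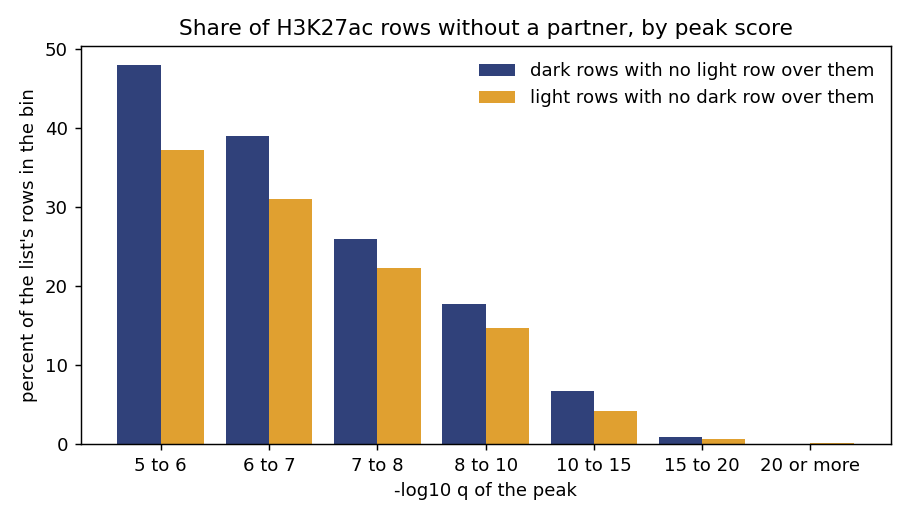
Share of scored H3K27ac peaks with no partner in the other list (y axis, percent of the list's rows in the bin) by −log10 q (x axis); blue bars are dark peaks without a light peak over them, orange bars light peaks without a dark peak over them. Dark-only peaks make up 47.94% of the lowest bin and 0.937% of the bin from 15 to 20.

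Just inside the threshold, dark-only peaks nearest to Ercc6l2, Myh9 and Slc25a26 had a −log10 q of 5.00445. Just outside it, dark peaks without a light partner near Cyth3 and Atp5o had 4.9652 and 4.96031. The peak near Ercc6l2 was 15206 bases from a light peak, while that near Cyth3 missed a light peak by 1 base. Without the threshold, 12550 dark peaks would have no light partner, and with a threshold of 10 only 393 would.

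Dark-only peaks were also narrow. Their median width was 215 bases (quartiles 171 and 295), against 392 bases (257 and 612) for shared dark peaks and 240 bases (187 and 330) for light-only peaks. The narrowest peak of all 3 sets had 146 bases, and the widest dark-only peak 1076 bases against 6054 bases in the shared set. Together the dark-only peaks covered 1764869 bases and the shared ones 10742134 bases.

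Most dark-only peaks lay next to a light peak rather than in a region without one. For 4123 of them (58.75%) the nearest light peak was under 1000 bases away, for 1186 (16.9%) it was at least 1000 and under 10000 bases away, and for 1709 (24.35%) it was 10000 bases away or more. The median gap was 590 bases, and 10 peaks touched a light peak end to end. A shared dark peak lay under 1000 bases away from 2664 dark-only peaks (37.96%). The 1709 peaks at 10000 bases or more, 6.01% of the scored dark peaks, are called isolated here. Their median gap was 36050 bases and the widest 3715426 bases, yet their median fold enrichment of 5.25 and width of 208 bases were close to those of the peaks beside a light peak, 5.55 and 219 bases.

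**Figure D2:**
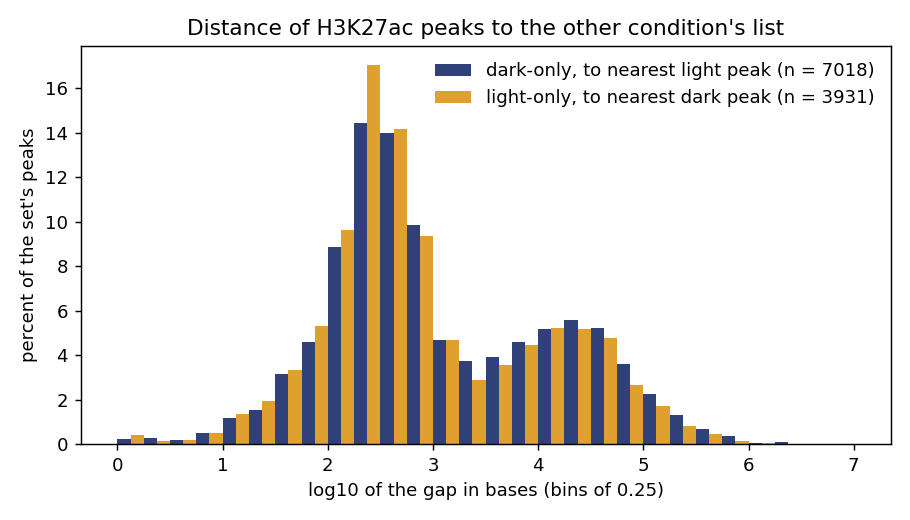
Distance from each dark-only peak to the nearest light peak (blue, n = 7018) and from each light-only peak to the nearest dark peak (orange, n = 3931), as log10 of bases on the x axis, with the percent of each set on the y axis. Both sets have their highest bars under 1000 bases and a lower rise past 10000 bases, and 24.35% of dark-only peaks lie in the isolated part.

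H3K4me3 was measured in separate libraries and was not used to choose the peaks. It covered fewer dark-only than shared peaks. An H3K4me3 peak of the dark list overlapped 46.84% of dark-only peaks (exact 95% interval 45.66 to 48.01), 75.3% of shared dark peaks (74.72 to 75.88) and 43.81% of light-only peaks (42.25 to 45.37). Both H3K4me3 lists overlapped 42.38% of dark-only, 71.96% of shared and 40.78% of light-only peaks, and neither list did for 52.75%, 24.32% and 55.53%. These intervals cover counting error over peaks of single libraries only.

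The overlap was also compared within bands of score and of width. At −log10 q from 5 to 6, the dark H3K4me3 list overlapped 40.24% of 3191 dark-only peaks and 55.99% of 3465 shared ones. From 8 to 10 it overlapped 60.52% of 808 dark-only and 73.27% of 3748 shared peaks. Among peaks under 200 bases wide it overlapped 44.85% of 2983 dark-only and 64.49% of 2608 shared peaks, and among those of 300 to 499 bases 51.31% of 1378 and 75.9% of 6717. With score (up to 15) and width split together, a division made after the data were seen, the dark-only share was the lower in 15 of 16 combinations. In the remaining one, −log10 q from 10 to 15 and under 200 bases wide, it was 86.67% of 45 dark-only against 85.71% of 140 shared peaks. Score chose the peaks, and within a band the 2 sets can still differ in it.

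H3K4me3 itself was rarely called in one condition only at these sites. At 313 dark-only peaks (4.46%, 3.99 to 4.97) H3K4me3 was in the dark list alone, and at 29 in the light list alone. Shared dark peaks had H3K4me3 in the dark list alone at 716 sites (3.34%, 3.1 to 3.59) and in the light list alone at 81, and light-only peaks at 119 (3.03%, 2.51 to 3.61) and 26. These are shares of all peaks in a set. The dark H3K4me3 list overlapped 3287 dark-only, 16143 shared and 1722 light-only peaks. Among these overlapping peaks, the sites in the dark list alone were a larger part of the dark-only set than of the others. The dark H3K4me3 list is the longer, with 30410 peaks against 27551. The dark-only peaks of highest fold enrichment with H3K4me3 in the dark list alone were nearest to Lypd6b (chr2:49719978-49720402, fold enrichment 8.6, nearest light peak 46771 bases away), Mid1ip1, Rps24, Gm16494 and Chn1.

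The H3K4me3 peaks under dark-only summits were broad and strong for their list, as were those under shared and light-only summits. In the dark list, their median width was 1992 bases and fold enrichment 32.12 under 3156 dark-only summits, and 2286 bases and 36.73 under shared summits. Under light-only summits the values were 1994 bases and 34.23, and over the whole list 878 bases and 12.83. A wide H3K4me3 peak can hold more summits and was counted once per summit, so the whole list is not an equal comparison. Dark-only summits lay nearer to the end of these H3K4me3 peaks, 552 bases in the median against 699 bases for shared summits, and 22.43% against 12.48% were within 250 bases of the end. Light-only summits were close to dark-only ones in this, with a median of 489.5 bases and 24.57% within 250 bases of the end.

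**Figure D3:**
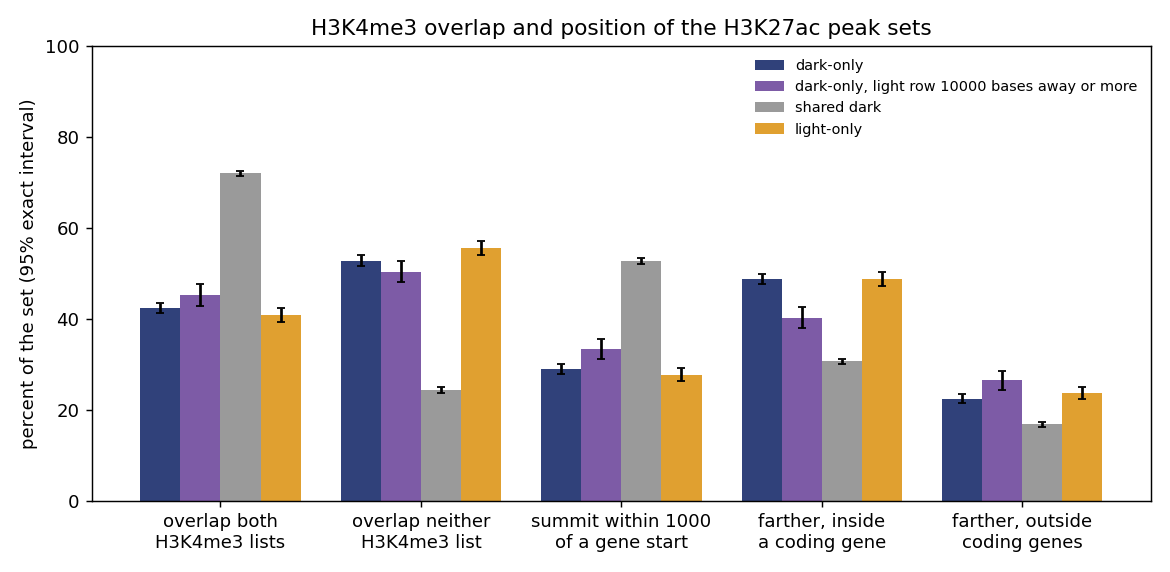
H3K4me3 overlap and position of dark-only peaks (blue), dark-only peaks 10000 bases or more from a light peak (purple), shared dark peaks (grey) and light-only peaks (orange), as percent of each set with exact 95% intervals. Dark-only and light-only bars are close to each other, and shared peaks stand apart with 71.96% under both H3K4me3 lists.

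Dark-only peaks were mostly away from gene starts and inside genes. A gene start is here the RefSeq start site, or either end of the gene where the reference table has no start site for it. Of the summits, 2031 (28.94%, 27.88 to 30.02) lay within 1000 bases of a gene start, against 52.61% of shared (51.94 to 53.28) and 27.65% of light-only summits (26.26 to 29.08). Farther summits inside a coding gene made up 48.72% of dark-only, 30.63% of shared and 48.66% of light-only peaks, and farther summits outside coding genes 22.34%, 16.76% and 23.68%. The median distance to a gene start was 12090 bases for dark-only, 776 bases for shared and 13821 bases for light-only summits. For 883 dark-only peaks (12.58%) the nearest start was over 100000 bases away. Proximity rose with score, which is part of how the peaks were chosen. At −log10 q from 5 to 6, 22.97% of 3191 dark-only and 34.11% of 3465 shared peaks were within 1000 bases of a start. From 8 to 10 the shares were 39.48% of 808 and 50.4% of 3748. With the threshold at 10, 57% of the 393 dark-only peaks were within 1000 bases of a start, against 66.8% of 9151 shared peaks. Dark-only peaks were the lower in each of these score bands, by a smaller gap than over all peaks. Between chromosomes with more than 1 scored dark peak, the dark-only share ran from 20.69% on chromosome 7 to 28.37% on X.

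Isolated peaks were not a purely distal class. Of the 1709, 33.35% (31.12 to 35.64) were within 1000 bases of a gene start and 45.17% overlapped both H3K4me3 lists. The 1186 peaks at intermediate gaps had lower values, 14.59% (12.63 to 16.73) and 24.87%.

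Within 1000 bases of known start sites, dark-only summits lay on both sides. Of 1663 such summits 615 (36.98%, 34.66 to 39.35) were upstream, against 37.43% of 9356 shared (36.45 to 38.42) and 47.07% of 871 light-only summits (43.71 to 50.45). The 452 isolated dark-only summits leaned downstream: 27.65% were upstream (23.58 to 32.03), and 57.08% (52.37 to 61.69) fell 100 to 499 bases downstream, against 42.21% of all proximal dark-only and 46.23% of shared summits. Few summits of any set lay within 100 bases of the start, 7.88% of dark-only, 6.89% of shared and 4.36% of light-only ones.

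**Figure D4:**
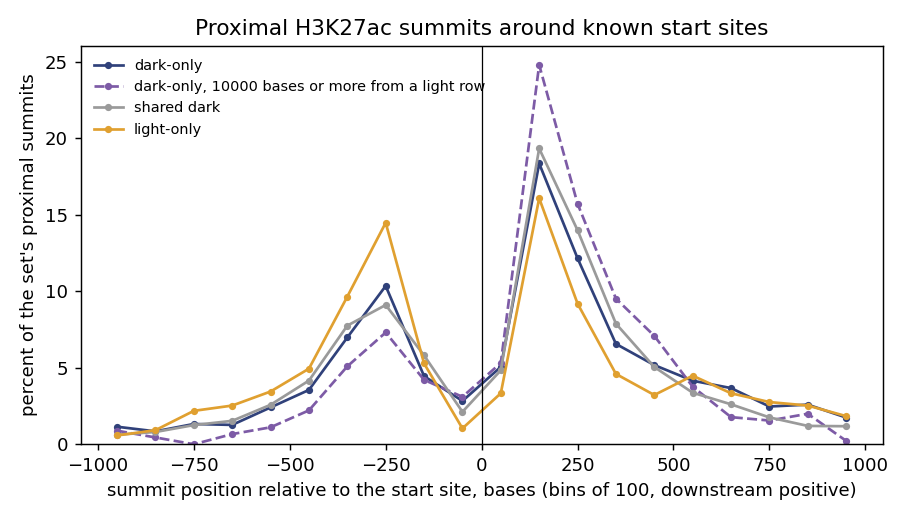
Position of H3K27ac summits within 1000 bases of a known start site, in bins of 100 bases (x axis, downstream positive), as percent of each set's proximal summits (y axis), for all dark-only (blue), isolated dark-only (purple, dashed), shared (grey) and light-only peaks (orange). Every set is lower in the bins next to the start site than at the flanking maxima on both sides, and 57.08% of the isolated dark-only summits lie 100 to 499 bases downstream.

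The peaks with the highest fold enrichment were almost all at promoters with H3K4me3 in both lists. The rule for naming took 15, of which 9 lay above a fold enrichment of 8.91 and the rest were drawn from 11 peaks tied at that value. Of the 15, 12 had a summit within 1000 bases of a gene start, and all but that nearest to Srp14 overlapped both H3K4me3 lists. The strongest was at Usp15, a deubiquitinase (chr10:123196526-123196897, fold enrichment 11.35, −log10 q 23.28), 269 bases from a light peak. Cbx1, which encodes a heterochromatin protein, followed with 9.82 (chr11:96789187-96789410), and its nearest light peak was 28113 bases away. Peaks of 9.58 to 8.91 lay at Ogdh, Hnrnpf, Prkar2b (a regulatory subunit of protein kinase A), Tbc1d20 (a Rab GTPase-activating protein), Tdrkh, Dsel, Cdc42ep3 (an effector of the GTPase Cdc42), Tor1b, Whrn and Ica1, and farther from Zfp960, Srp14 and 4930467E23Rik. The Dsel peak, at a dermatan sulfate epimerase-like gene, was the most isolated of the 15, with the nearest light peak 1881244 bases away (chr1:111864446-111864882, fold enrichment 8.91).

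A total of 4121 genes were nearest to at least 1 dark-only peak, 2712 of them to exactly 1, and 339 to 4 or more. Msi2, an RNA-binding protein of neural progenitors and glia, had 21 dark-only peaks, along with 50 shared and 17 light-only ones. Gse1 had 16, Xxylt1 (a xylosyltransferase acting on Notch) 15, Zmiz1 13, and Lingo1 and Rab11fip4 12 each. None of the 21 at Msi2, the 16 at Gse1 or the 12 at Lingo1 were isolated. Sox2 had 11, of which 4 were isolated, and Sox9, a glial transcription factor, 10, of which 1 was isolated. Among the 20 genes with most dark-only peaks, Rab11fip4, Cacna1c, Prickle2, Rhbg, Acot7, Daam1 and Tcf7l2 had more dark-only than shared peaks, Daam1 10 against 2.

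Cacna1c, the pore subunit of the L-type calcium channel Cav1.2, carried 2 separate groups of dark-only peaks. Inside the gene, 6 peaks lay between chr6:118844989 and 118885951, at fold enrichments of 4.37 to 6.69, and the nearest light peaks were 52661 to 77915 bases away. None of these 6 overlapped H3K4me3. Near its start, 5 more peaks lay within chr6:119105863-119107735, at 5.13 to 7.07, all with H3K4me3 in both lists and a light peak 74 to 505 bases away. The gene had 5 shared and 1 light-only peak.

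Ion channels had dark-only peaks most often of the 7 gene lists examined. Of 32 channel genes 21 (65.62%) were nearest to at least 1, with 54 peaks, 21 of them isolated and 48 inside a coding gene; over all 21308 placed genes the share was 19.34%. The same list had light-only peaks at 13 genes (40.62%) against 12.85% of all genes. Of the channel genes, 27 were nearest to any scored dark peak, as were 10350 of all placed genes. Only 8 of the 54 peaks were within 1000 bases of a gene start. The channel genes differ in length, for example 712823 bases for Kcnma1 and 42488 bases for Kcnc1. The shares were not adjusted for gene length, and its part in them was not tested. An isolated peak of fold enrichment 8.6 lay 620 bases from the start of Scn8a, 37793 bases from light, and one of 6.77 lay 418 bases from an end of Kcnq3, a subunit of the neuronal M-current channel, 20620 bases from light.

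SCN transcription factors followed with 14 of 25 genes (56%) and 30 peaks, 4 of them isolated, and light-only peaks were likewise at 14. Over all placed genes the shares were 19.34% and 12.85%. Of the 25 genes, 16 were nearest to any scored dark peak. Lhx1, which is needed for coupling of SCN neurons, had 4, of which 3 lay 1245 to 3385 bases from the start with a light peak 133 to 387 bases away. Zfhx3 had 4, at 16243 to 399946 bases from its start. Six3 had 3, at 154967 to 166142 bases, and Id4 5, at 595 to 417189 bases. Tshz2 had 1 isolated peak of fold enrichment 7.07, 226875 bases from its start and 103276 bases from light.

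Core clock genes had dark-only peaks at 9 of 26 genes (34.62%), fewer than the 13 (50%) with light-only peaks. Over all placed genes these shares were 19.34% and 12.85%. Of the 26 clock genes, 23 were nearest to any scored dark peak. Of all placed genes 10350 were, and 4121 were nearest to a dark-only peak. The clock genes had 15 dark-only peaks in all, and 1 was isolated. Besides the promoter of Rora they included peaks at Arntl, Bhlhe40, Cry1, Dbp, Hlf, Nfil3 and Timeless; none lay nearest to a Period gene. The isolated one was a second peak in Rora, 25406 bases from its start, at fold enrichment 4.94.

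Immediate-early genes had dark-only peaks at 13 of 31 genes (41.94%) and light-only peaks at 12 (38.71%), with 22 dark-only peaks, 4 of them isolated. Over all placed genes the shares were 19.34% and 12.85%. Of the 31 genes, 24 were nearest to any scored dark peak. At Fos, which encodes an AP-1 subunit, 2 isolated peaks lay 37929 and 36519 bases from the start (chr12:85435644-85436248, fold enrichment 6.77, with H3K4me3 in the dark list alone, and chr12:85437238-85437485, 5.24), 18409 and 17172 bases from the nearest light peak. Dusp1, a phosphatase of MAP kinases, and Egr3, a zinc-finger transcription factor, had 1 isolated peak each, 16833 and 2402 bases from the gene. Jun had 1 of 7.07, 50 bases from light.

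SCN peptides and receptors had dark-only peaks at 6 of 25 genes (24%, against 19.34% of all placed genes), with 8 peaks, and light-only peaks at 3. Vipr2, the receptor through which vasoactive intestinal peptide synchronises SCN neurons, had 2, one 514 bases from its start. Cck had 2 isolated peaks, and Prok2 1 isolated peak 138228 bases away. Synapse genes of GABA and glutamate had them at 13 of 35 genes (37.14%), with 23 peaks, and light-only peaks at 11; Gria1, an AMPA receptor subunit, had 5, and an isolated peak of 7.26 lay in Grin2b, an NMDA receptor subunit. Genes of histone acetylation had them at 7 of 20 (35%), and light-only peaks at 6. All 20 of these genes were nearest to a scored dark peak, as were 26 of the 35 synapse genes. The peak 215 bases from an end of the acetyltransferase gene Kat6a had a fold enrichment of 8.91, and that 295 bases from the start of Crebbp, which encodes CBP, had 5.83. The deacetylase gene Hdac9 held 3 isolated peaks. A pair of them, at 7.69 and 7.38, lay 139849 and 139104 bases from light with H3K4me3 in both lists.

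The RNA libraries carried the SCN's own markers. The WT dark libraries listed Avp at a mean of 411.3 RPKM, the highest of 7 SCN neuron markers, and Prok2 at 0.34, the lowest. Markers of other cells were present too: astrocyte markers ran from 8.62 (Aldh1l1) to 170.9 RPKM (S100b), oligodendrocyte markers from 5.68 (Opalin) up with a median of 31.66, microglial markers from 2.38 (Aif1) to 23.08 (C1qa), endothelial markers from 1.05 (Kdr) to 20.74 (Rgs5), and Oxt of the neighbouring hypothalamus reached 452.5. None of the markers was at 0. Glial genes were among those with dark-only peaks. Of 10 astrocyte markers 8 had 30 dark-only peaks, 10 of these at Sox9, against 30 shared and 12 light-only ones. Light-only peaks were at 7 of the same 10. Of 11 oligodendrocyte markers 6 had 14, against 14 and 3. Over all placed genes 19.34% had a dark-only and 12.85% a light-only peak. Neuron markers had 5 at 2 of 6 genes, against 17 and 1, and microglial markers none in any set. GABA neuron markers had 4 at 2 of 3, against 12 and 6, and SCN neuron markers 5 at 2 of 7, against 11 and 4. Oligodendrocyte precursor markers had 3 at 1 of 4, and endothelial and pericyte markers 4 at 2 of 6. Agt and Gja1 had 5 each, Slc1a3 4 and Mbp 6, while Gfap, Slc1a2, Mog, Mag, Ermn, Opalin and Olig1 had no dark-only peak. Each ChIP list comes from 1 tissue sample, so a difference in acetylation per cell and in the share of glial cells between the samples cannot be told apart. The WT littermate libraries held 26638939 to 31271978 counted reads, and those of the light-pulse groups compared 12477382 to 30149286. Npas4 itself was counted in the libraries labelled KO, at 4.58 to 7.35 CPM (counts scaled to library size) in KO light and 5.43 to 10.56 in KO dark, against 10.54 to 14.08 in WT light and 7.99 to 8.86 in WT dark. The part of the gene that is deleted is not given in the sources used here, so these counts do not check the label, and no contrast below uses KO libraries other than for the spread.

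Genes nearest to dark-only peaks were expressed in the dark. Their median was 8.34 RPKM in WT dark (SD of the 3 library medians 0.0656), against 10.73 for genes nearest to shared peaks, 9.86 for light-only peaks and 2.44 for all 21999 genes. Genes of isolated dark-only peaks had a median of 6.03 RPKM. Above 1 RPKM were 87.19% of dark-only genes, 91.91% of shared-peak genes and 56.99% of all genes. A gene can be nearest to peaks of several sets.

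After 1 h of light, genes nearest to dark-only peaks changed about as often as all genes. In WT littermates 94 of 3882 tested genes (2.42%) were higher in light, against 2.23% of all 15001 tested genes, and 15 (0.386%) were lower, against 0.34% (edgeR quasi-likelihood test, Benjamini-Hochberg adjusted p under 0.05). Their median log2 fold change was -0.01, as it was over all genes. With the replicate number as a block 155 genes (3.99%) were higher, against 3.7% of all genes, and 51 (1.31%) lower, against 1.33%. Genes of isolated dark-only peaks were higher at 24 of 1274 (1.88%) and lower at 4. For comparison, 2.97% of 8801 genes nearest to shared peaks and 4.26% of 2583 nearest to light-only peaks were higher. With the block 39 genes of isolated dark-only peaks (3.06%) were higher and 14 (1.1%) lower. Under the block 5.14% of shared-peak genes and 6.74% of light-only genes were higher. Libraries were then left out 1 at a time for genes nearest to dark-only peaks, in the fit without the block. Leaving out WT dark replicate 3, WT light replicate 2 or WT light replicate 3 left 8 genes lower (0.206%, 0.206% and 0.205%, against 0.146%, 0.126% and 0.0993% of all genes), and leaving out WT light replicate 1 left 9 (0.231% against 0.126%).

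The genes that were higher in light were led by immediate-early genes. Fosb, an AP-1 subunit with 2 dark-only peaks 8941 and 15897 bases from its start, had 210.2, 168.6 and 167.0 CPM in WT light, against 1.14, 1.51 and 1.07 CPM in WT dark. Its log2 fold change was 7.19 (SE 0.285, edgeR adjusted p = 2.89e-08). Egr3 had 61.48, 45.26 and 60.28 CPM in WT light, against 0.622, 0.722 and 0.771 CPM in WT dark, a log2 fold change of 6.29 (SE 0.324, edgeR adjusted p = 1.93e-07). Fos had 285.2, 240.6 and 256.0 CPM in WT light, against 8.16, 7.97 and 7.84 CPM in WT dark, a log2 fold change of 5.03. Fos transcripts were thus higher in every light library, while 3 H3K27ac peaks nearest to it were called only in the dark, beside 7 shared and 1 light-only peak. Prok2, a secreted output signal of the SCN, had 18.39, 9.11 and 13.47 CPM in WT light, against 0.769, 0.492 and 0.67 CPM in WT dark, a log2 fold change of 4.41 (SE 0.411, edgeR adjusted p = 2.89e-05). Its only H3K27ac peak of these sets was the isolated dark-only one. Fosl1, Nr4a1, Arc, Btg2, Dusp1 and Adamts1 completed the 10 largest, the first 5 with log2 fold changes of 5.8, 4.56, 3.85, 2.93 and 2.73. Adamts1, a secreted protease, had 36.79, 29.06 and 32.95 CPM in WT light, against 7.39, 7.38 and 5.96 CPM in WT dark. In all, 12 of the 13 immediate-early genes with a dark-only peak were higher, as were 27 of the list's 31; Ier5 was the one that did not pass (log2 fold change 0.18). Among clock genes, Rora had 295.0, 268.9 and 309.5 CPM in WT light, against 111.1, 170.3 and 128.9 CPM in WT dark (log2 fold change 1.09, edgeR adjusted p = 0.00533), and Bhlhe40, a repressor of clock genes, was higher by 0.79. No channel, synapse gene, SCN transcription factor or histone acetylation gene with a dark-only peak passed the test at 1 h in WT littermates. With the replicate block Dbp, a clock output factor with 1 dark-only peak, had an edgeR adjusted p of 0.0211 at a log2 fold change of -0.32, against 0.0514 without it. Under the same block Fezf2 had an edgeR adjusted p of 0.0135 against 0.0616 without it, Gse1 0.0313 against 0.277 and Tor1b 0.0195 against 0.232, at log2 fold changes of 0.65, 0.33 and 0.2.

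**Figure D5:**
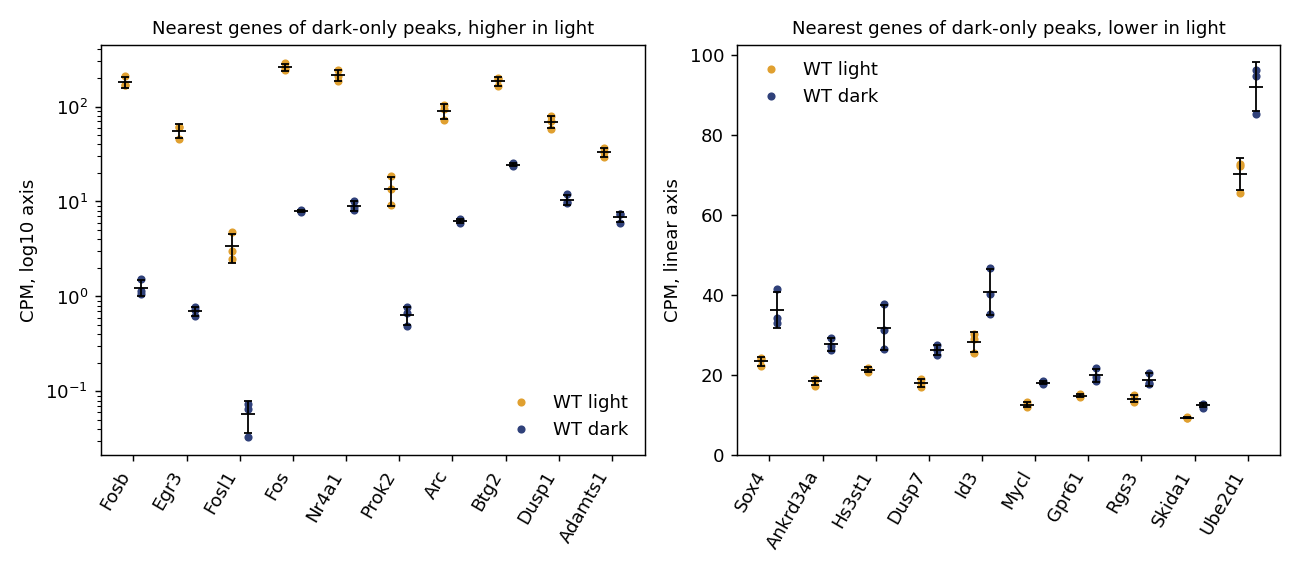
CPM in the 3 WT light (orange, left) and 3 WT dark (blue, right) libraries for the 10 genes nearest to a dark-only peak with the largest rise (left panel, log10 axis) and the largest fall (right panel, linear axis) after 1 h of light; black marks are the mean with its SD. The genes were chosen by this contrast, so the separation of their light and dark points is not a separate test.

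The genes that were lower in light changed by less. Sox4, a transcription factor of developing neurons, was nearest to 6 dark-only peaks. The 3 isolated ones lay 141759 to 400075 bases from its start. Sox4 had 24.39, 24.0 and 22.27 CPM in WT light, against 33.05, 41.46 and 34.34 CPM in WT dark. Its log2 fold change was -0.62 (SE 0.117, edgeR adjusted p = 0.00969). Ankrd34a followed with -0.59, Hs3st1 (a heparan sulfate sulfotransferase) with -0.58, Dusp7 (a MAP kinase phosphatase) with -0.54, Id3 with -0.53 and Mycl with -0.52. Gpr61, an orphan receptor, had -0.42, Rgs3 -0.42, Skida1 -0.41 and Ube2d1, a ubiquitin-conjugating enzyme, -0.39. Rgs3, a regulator of G-protein signalling, had 8 dark-only peaks, 4 of them isolated, and Ube2d1 had 4, one of them covering its promoter. The fit without the replicate block was repeated with each library left out in turn. The edgeR adjusted p then rose above 0.05 for Sox4, Hs3st1, Id3, Gpr61, Rgs3 and Ube2d1 (highest 0.115, for Id3), and not for Ankrd34a, Dusp7, Mycl and Skida1. With all libraries and the replicate block, the genes that had gone above 0.05 had an edgeR adjusted p from 0.000402 (Sox4) to 0.00559 (Rgs3). Libraries were not left out under the block.

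In the light-pulse libraries the count depended on the batch term. With the batch named in the labels as a term, 172 of 3840 genes nearest to dark-only peaks (4.48%) were higher at 1 h than at CT17 in the dark, against 4.39% of all genes, and 208 (5.42%) were lower, against 3.99%. Both 1 h libraries are in the second labelled batch, where the CT17 libraries are those with the suffix s, of 30149286 and 30072955 counted reads against 13273367 and 13656162 in the first batch. With the suffix as the term instead, 45 (1.17%) were higher, against 1.11% of all genes, and 10 (0.26%) lower, against 0.158%. Without 1 h replicate 1, 37 were higher and 22 lower (0.96% and 0.571%, against 0.806% and 0.352% of all genes), and without 1 h replicate 2, 68 and 117 (1.76% and 3.04%, against 1.61% and 1.82%). Without CT17 replicate 1s they were 70 and 103 (1.82% and 2.68%, against 1.52% and 1.73%), and without CT17 replicate 2s 75 and 115 (1.95% and 3%, against 1.59% and 1.84%). Of the 13 immediate-early genes with a dark-only peak, 13 were higher with the batch and 12 with the suffix, Fosb by 6.14 with the batch and 6.64 with the suffix on the log2 scale. Of the 14 SCN transcription factors with a dark-only peak, 5 were higher and 2 lower with the batch, and none passed with the suffix. Of the 10 named genes lower in WT littermates, Ankrd34a, Hs3st1 and Dusp7 were also lower here with either term, Rgs3 and Ube2d1 with the batch only, and Sox4, Id3, Mycl, Gpr61 and Skida1 with neither. Sox4 had a log2 fold change of 0.004 with the batch and -0.37 with the suffix. The 3 genes lower with either term were at -0.67, -0.75 and -0.8 with the batch and -0.51, -0.55 and -0.55 with the suffix.

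After 6 h of light, 32 of 3840 genes nearest to dark-only peaks (0.833%) were higher than in the dark at CT23, against 0.723% of all genes, and 23 (0.599%) were lower, against 0.282% (edgeR, adjusted p under 0.05). Of the 1261 tested genes of isolated dark-only peaks 6 (0.476%) were higher and 14 (1.11%) lower, while of 8718 genes nearest to shared peaks 64 (0.734%) were higher and 18 (0.206%) lower. Each side has 2 libraries. Both 6 h libraries and CT23 replicate 2 are in the second labelled batch, and CT23 replicate 1 is in the first. Without CT23 replicate 2 the contrast rests on the batch term. With the suffix as the term instead of the batch, 45 genes were higher and 34 lower (1.17% and 0.885%, against 0.998% and 0.413% of all genes). The counts that follow leave out 1 library each and have the batch as the term. Without light replicate 1 they were 13 and 6 (0.337% and 0.156%, against 0.305% and 0.0881% of all genes), and without light replicate 2 they were 20 and 8 (0.519% and 0.208%, against 0.461% and 0.129%). Without CT23 replicate 1 they were 28 and 14 (0.727% and 0.363%, against 0.623% and 0.176%). The call held without any 1 library for 4 of the 23 lower genes and 9 of the 32 higher ones.

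Those 4 lower genes were Hdac9, Dsel, Syt17 and Tmc7. Hdac9, the deacetylase with the isolated pair of peaks, had 54.41 and 59.96 CPM after 6 h of light, against 109.7 and 104.0 CPM at CT23 in the dark. Its log2 fold change was -0.91 (SE 0.0992, edgeR adjusted p = 0.000225), and at 1 h it was -0.12 in WT littermates. Dsel, whose isolated promoter peak was among the strongest of all, had 44.29 and 46.16 CPM after 6 h of light, against 89.47 and 84.78 CPM in the dark (log2 fold change -0.83, SE 0.101, edgeR adjusted p = 0.000533). At 1 h Dsel had -0.15 in WT littermates, with an edgeR adjusted p of 0.995. Syt17, a member of the synaptotagmin family with 2 isolated peaks, had 38.97 and 43.92 CPM in light, against 104.1 and 81.16 CPM in the dark, and Tmc7 had -0.61 on the log2 scale. Lhx1 was also lower, with 60.53 and 59.96 CPM in light, against 114.1 and 90.42 CPM in the dark (log2 fold change -0.88, edgeR adjusted p = 0.0255), but reached 0.183 without 1 library.

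The 9 higher genes were Rora, Prok2, Pcdhgc5, Igfbp5, Slc6a17, Ppp1r3c, Cmklr1, Angptl4 and Socs3. Rora had 313.2 and 312.1 CPM after 6 h of light, against 125.4 and 136.0 CPM in the dark (log2 fold change 1.29, SE 0.132, edgeR adjusted p = 0.000121). Prok2 had 9.76 and 6.65 CPM in light, against 3.3 and 1.48 CPM in the dark (log2 fold change 2.41). Igfbp5, a binding protein of insulin-like growth factors, had 694.1 and 701.6 CPM in light, against 437.7 and 441.0 CPM in the dark, and Socs3, an inhibitor of cytokine signalling, had 8.52 and 8.27 CPM against 3.06 and 2.35 CPM. Rora and Prok2 were higher at 1 h and at 6 h of light, and each was nearest to 1 isolated dark-only peak. Both of these peaks had a fold enrichment of 4.94, and they lay 25406 bases from Rora's start and 138228 bases from Prok2's. Rora also had 3 shared and 2 light-only peaks. A link between the peaks and the transcripts was not tested.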

How the data were processed

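Peaks came from 4 deposited lists, 1 ChIP library each (H3K27ac and H3K4me3, light and dark), in which the authors give each peak's fold enrichment and −log10 q; the lowest −log10 q of the lists was 2.03. The submitters' processing notes name BWA 0.7.16a, MACS2 2.1.1, HOMER 4.9.1, STAR 2.7.1a and HTSeq 0.9.1 among others, on build mm10, and how the input libraries were used is not given in the sources used here. The lists hold no read counts, so the depth behind a peak is unknown. RNA was deposited by the authors as raw read counts per gene symbol and as RPKM, with the strand setting not given in the sources used here.

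Dark-only peaks were found as described above, and the members and gene lists were chosen with earlier results of these data known. Each summit was given the nearest gene among 21308 of the 21999 genes in the count tables that were placed on GRCm38.p6 (RefSeq): 16814 by start sites and 4494, without a start site in the reference table, by both gene ends. This replaces the plan to use start sites alone. Intervals are exact (Clopper-Pearson, 95%) and cover counting error only.

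Counts were tested with edgeR 4.0.16 (TMM, filterByExpr, quasi-likelihood, R 4.3.3; Benjamini-Hochberg over all genes tested), on 4 groups of the Npas4 experiment and, with the labelled batch as a term, on 6 groups of the light-pulse experiment, and the fit was tested on simulated data. Libraries are pools of SCN pairs, so p-values speak only to how much such pools vary. WT libraries with the same number in their titles deviated together (r = 0.2, 0.37 and 0.416, across genes), so the numbers were taken to pair them. The main fit is still the one without the block. It chose the named genes and was used when libraries were left out. Blocked values stand beside counts in WT littermates and named genes whose call they change. Genes were named by rule: the 15 peaks of highest fold enrichment, the 20 genes with most peaks, the 10 largest changes in each direction after 1 h of light in WT littermates, and list members; genes called after 6 h of light and those with H3K4me3 in the dark list alone were chosen after their values were seen. Alternatives were DESeq2 1.42.0, filters, scores, overlaps, left-out libraries and the replicate block. A few genes are not reported here.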

Additional observations from a re-analysis of the deposited data

How the results depend on the processing

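The number of dark-only peaks (7018) was 12550 with no score threshold, 393 with a −log10 q of 10, 11661 when light peaks under 5 were ignored and 2895 when no light peak could lie within 1000 bases. The overlap with the dark and the light H3K4me3 list (46.84% and 42.79%) became 45.03% and 40.81% when at least 0.5 of the peak had to be covered, and 74.3% and 70.23% at a score of 10. The share near a gene start (28.94%) became 35.61% within 2500 bases and 57.0% at a score of 10. Chosen after seeing the data, start sites alone gave 24.71% and all RefSeq genes 33.7%. Isolated peaks, also chosen after seeing the data, gave 49.15% and 45.64% for the H3K4me3 lists and 33.35% for gene starts. Their nearest genes numbered 24 higher and 4 lower in WT littermates at 1 h, 45 and 82 in the light-pulse experiment at 1 h, and 6 and 14 at 6 h, from fewer genes.

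With the replicate block 155 genes were higher and 51 lower in WT littermates, and 342 and 327 in the light-pulse experiment at 1 h (8.91% and 8.52%, against 8.48% and 6.73% of all genes). At 6 h the block gave 42 lower (1.09% against 0.544%). Same-numbered light-pulse libraries had r of 0.0425 to 0.217 at 1 h and 0.233 at 6 h. With only 2 numbers, each value recurs with the opposite sign between libraries of unlike number. The values therefore cannot tell whether the numbers pair these libraries. With the suffix term 45 were higher and 10 lower at 1 h. DESeq2 called 50 lower at 6 h (1.3% against 0.592%), and the cause was not tested. Leaving out 1 library gave 65 to 94 higher and 8 to 10 lower in WT littermates, 37 to 182 and 22 to 204 in the light-pulse experiment at 1 h, and 13 to 117 and 6 to 95 at 6 h. The upper ends at 6 h are from the fit without CT23 replicate 2, where the contrast rests on the batch term. The median level was 7.846 RPKM in the CT17 libraries and 8.649 RPKM without genes at 0. The other 37 values recomputed moved by less than the spread or, for counts, by at most 1.5 times. With 1 library per list, no peak difference has a replicate, and unknown ChIP depth limits what a missing peak shows.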
